A study of Mus musculus with 22 samples.

Results

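The histone deacetylases described here were *Hdac1*, *Hdac2*, *Hdac3*, *Hdac4*, *Hdac5*, *Hdac6*, *Hdac7*, *Hdac8*, *Hdac9* and *Hdac11*, which were 10 of the 23453 gene symbols in the count table. They were picked by symbol as enzymes of classes I, II and IV, by a rule that uses no measured value, though with earlier results of these data known. The RNA came from 22 single astrocytes of primary cortical cultures from newborn C57BL/6 mouse pups, each imaged with a calcium indicator while EtOH was applied and then drawn into a pipette according to its calcium signal. Of these cells, 6 were S-type, with a slow and sustained rise, 6 were T-type, with a sharp transient, 5 were M-type, with mixed waveforms, and 5 were nonresponding (NR). All 4 groups shared the mouse strain, the culture procedure and exposure to EtOH, NR cells included, so no group was without EtOH. For its sequencing the paper chose the highest dose that it had imaged. It also describes cells collected at different times after EtOH. The labels give no collection time, so whether the groups shared it cannot be told. The cultures had been shaken and given cytosine arabinoside to deplete other cells, microglia among them. Each culture came from a single pup, but neither the labels nor the methods tie a cell to its pup or dish, and each response type therefore counted as 1 sample. No test between types was possible, and every interval below covers counting error only.

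A cell had between 2937786 and 22131076 reads assigned to genes, with a median of 16965582. T-type cell 3 was the shallowest, and T-type cells 2 and 3 had the smallest size factors, 0.276 and 0.183 against 0.548 to 2.31 in the other cells, so that a read weighed more in their normalised counts. Astrocyte markers summed to between 4811 and 20359 CPM (reads scaled to one common library total), and *Slc1a3*, *Aqp4*, *Gja1*, *Sox9* and *Aldh1l1* had reads in all 22 cells. From the same list *Aldoc* had reads in 21 cells and *S100b* in 16. Some of these values were near the floor, with *Aqp4* at 0.159 CPM and *Aldh1l1* at 0.0617 CPM in their lowest cells. Of 9 microglial markers, all had a read in some cell, and their sum was 43.8, 44.5, 0.066, 28.2 and 0.792 CPM in NR cells 1 to 5, at most 5.08 CPM in T-type, and at most 0.308 and 0.629 CPM in S-type and M-type. Markers of dividing cells exceeded 5000 CPM in S-type cells 1 and 2 and in T-type cell 5 and stayed at or below 1936 CPM elsewhere. The endothelial markers *Cldn5* and *Cdh5*, the oligodendrocyte marker *Sox10* and the pericyte marker *Rgs5* had no read in any cell. Of the same lists, the endothelial *Flt1*, *Pecam1* and *Tek* had reads in 9, 3 and 2 cells, the mural *Pdgfrb* in 15, and *Acta2* and the oligodendrocyte lineage gene *Olig1* in all 22. Of the neuronal list, *Map2* had reads in all 22 cells, *Stmn2* in 20, *Tubb3* in 17, *Syt1* in 8, *Snap25* in 6, *Rbfox3* in 5 and *Dcx* in 2. The neuronal markers summed to a median of 207 CPM over all cells and were highest in S-type cell 2, at 2076 CPM.

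Histone deacetylases remove acetyl groups from lysines of histones and other proteins, and acetylated histones mark accessible chromatin. The class I enzymes Hdac1, Hdac2 and Hdac3 work in the nucleus as the catalytic subunits of corepressor complexes, and Hdac8 acts on the cohesin subunit Smc3. The class IIa enzymes Hdac4, Hdac5, Hdac7 and Hdac9 have little catalytic activity of their own, bind MEF2 transcription factors, and leave the nucleus when calcium-dependent kinases phosphorylate them. Hdac6, of class IIb, is a cytoplasmic deacetylase of tubulin, and Hdac11 is the lone member of class IV.

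The base composition of the promoters is shown for the member with the most reads per length, *Hdac2*, and for the member with the lowest share in T-type cells, *Hdac9*. RefSeq promoters (GRCm38.p6) were at hand for *Hdac2*, *Hdac4*, *Hdac5*, *Hdac6*, *Hdac7*, *Hdac8*, *Hdac9* and *Hdac11*, and the 250 bases before a start are printed from 5′ to 3′ with each CG dinucleotide in capitals.
Hdac2 (chr10:36974294-36974543, plus strand): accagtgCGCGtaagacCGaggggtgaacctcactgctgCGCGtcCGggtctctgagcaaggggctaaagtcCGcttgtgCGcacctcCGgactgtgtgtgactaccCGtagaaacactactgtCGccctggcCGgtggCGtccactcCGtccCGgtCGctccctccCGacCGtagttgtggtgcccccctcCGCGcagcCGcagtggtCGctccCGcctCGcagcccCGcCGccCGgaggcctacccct
Hdac9, inner start (chr12:34528890-34529139, minus strand): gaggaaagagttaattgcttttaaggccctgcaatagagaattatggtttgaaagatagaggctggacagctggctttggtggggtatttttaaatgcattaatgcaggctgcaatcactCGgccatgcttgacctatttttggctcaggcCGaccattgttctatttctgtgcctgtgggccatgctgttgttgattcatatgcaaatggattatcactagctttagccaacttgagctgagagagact
Hdac9, outer start (chr12:34917096-34917345, minus strand): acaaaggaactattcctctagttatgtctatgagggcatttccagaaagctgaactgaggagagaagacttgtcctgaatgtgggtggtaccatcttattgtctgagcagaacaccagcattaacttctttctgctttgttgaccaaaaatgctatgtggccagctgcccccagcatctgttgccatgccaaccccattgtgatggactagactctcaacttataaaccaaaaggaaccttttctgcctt
The *Hdac2* stretch held 27 CG dinucleotides, which read the same on both strands, and 91.4% of the 32851 RefSeq promoters held fewer. The 2 *Hdac9* stretches held 2 and 0, where the median promoter held 6, and their GC content was 43.6% and 44.4% against 68.8% for *Hdac2*. The other promoters of the family held between 5 and 25, both ends of that range being starts of *Hdac7*. These counts describe the sequence and were not set against expression.

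All 10 deacetylases were detected, in as many as 22 cells (*Hdac1*, *Hdac2* and *Hdac7*) and as few as 11 (*Hdac11*). *Hdac3* and *Hdac5* had reads in 21 cells, *Hdac9* in 20, *Hdac4* and *Hdac6* in 19 and *Hdac8* in 12. A single cell held reads of between 5 members, in T-type cell 2, and all 10. With every cell thinned to 2937786 reads the range was again 5 to 10, and the deacetylases took between 110 and 367 CPM of a library.

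**Figure D1:**
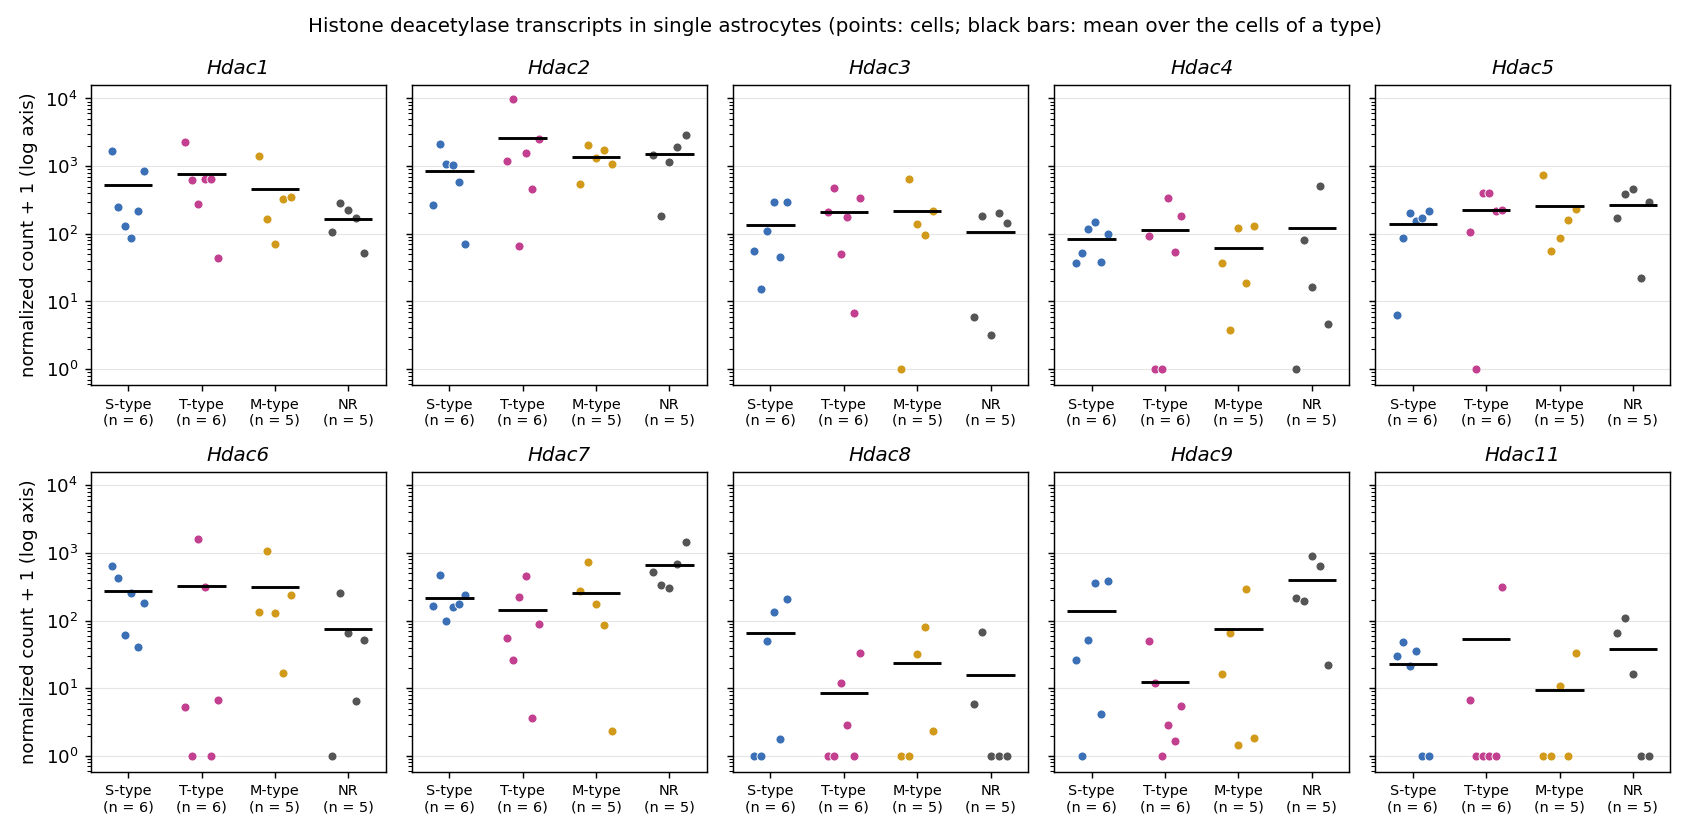
Normalised count plus 1 (reads divided by the size factor of the cell, log axis) of each deacetylase in each of the 22 cells, by response type; points are cells and black bars the mean over the cells of a type, and a cell without a read sits at 1. The NR cells of *Hdac7* lie between 305 and 1461, and 14 of the 17 responding cells lie below them.

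Per kilobase of exon, *Hdac2* led with 48.4% of the deacetylase reads averaged over all cells and *Hdac1* followed with 21.1%. *Hdac7* (7.35%), *Hdac6* (6.75%) and *Hdac3* (6.54%) formed a middle group close to *Hdac5* (4.30%), and *Hdac9*, *Hdac11*, *Hdac8* and *Hdac4* each had under 2%, from 1.88% to 1.09%. The length was that of all merged exons, from 3445 bases for *Hdac1* to 15813 for *Hdac4*, and this order depends on it. In reads not divided by length, *Hdac9* had 4845 over all cells and *Hdac3* 4687. Whether reads rise with that length after this amplification was not tested. *Hdac2* ranked first in all 4 types, with between 38.5% in S-type and 54.1% in NR. The next rank went to *Hdac1* in the M-type (21.0%), T-type (24.6%) and S-type (28.9%) cells, but to *Hdac7* in NR (15.5%), where *Hdac1* had 9.03%. *Hdac9* took 5.05% in NR and was last in T-type, with 0.0725%.

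Summed by class, class IIa transcripts took a larger part of the family in NR cells than in responding cells. Their share of the deacetylase reads per kilobase was 22.8%, 30.6%, 32.3%, 25.6% and 26.4% in NR cells 1 to 5. T-type cells lay between 0.178% and 17.4% with a median of 7.57%, S-type cells between 4.13% and 18.7% with a median of 14.04%, and M-type cells at 18.5%, 12.3%, 10.2%, 9.03% and 7.33%. All 5 NR cells were thus above all 17 responding cells. The sum over the class was formed after the values of its members had been seen, and among the 4 classes it was the only one whose NR and responding cells did not overlap. How often other genes, or sums of as many genes, separate the NR from the responding cells was not counted. A share is formed within a cell and does not depend on the size factors. It held with cells thinned to the smallest library (lowest NR cell 24.5%, highest responding cell 18.8%), without *Hdac9* (20.4% and 18.6%) and with *Hdac10* added to the family (22.5% and 18.7%). Without *Hdac7* the groups overlapped, with 11 of 17 responding cells at or above the lowest NR cell, and with reads not divided by exon length 1 responding cell overlapped. NR cells 3 and 5, which had under 1 CPM of microglial reads, had 32.3% and 26.4%. The part of microglial transcripts in the share was not tested.

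**Figure D2:**
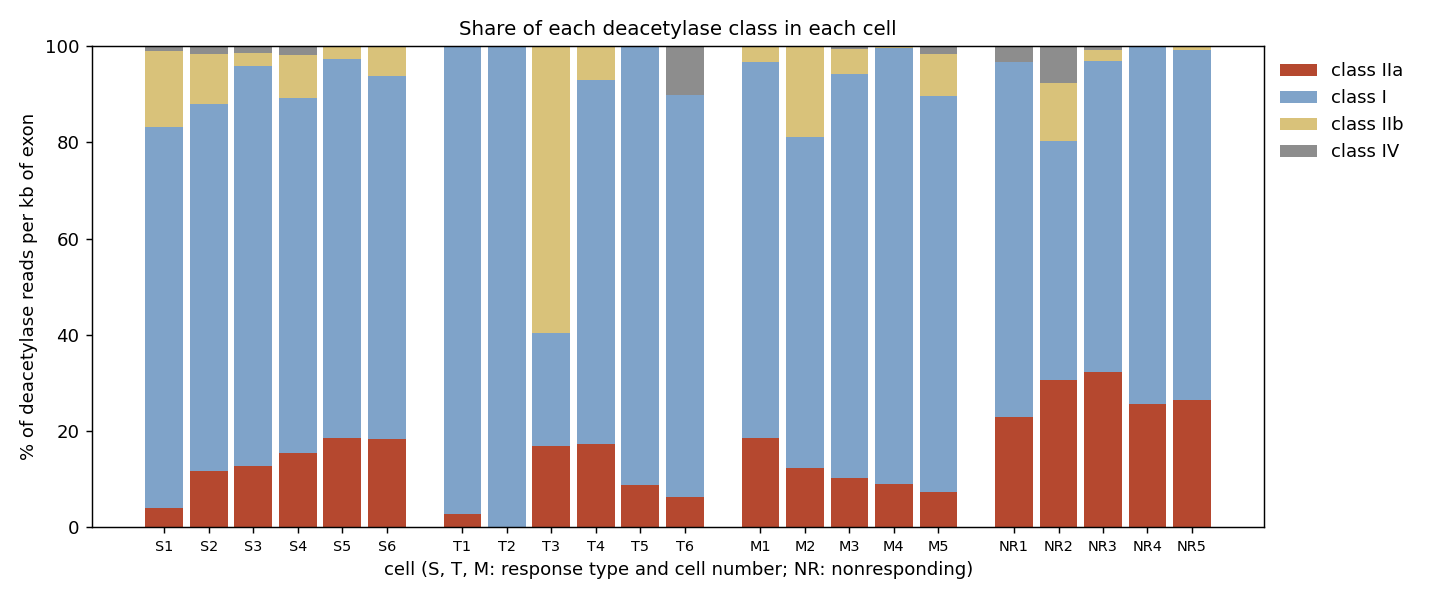
Share of each deacetylase class in the reads per kilobase of exon of the 10 members, in percent, with 1 bar per cell; letters and numbers name the response type and cell. The class IIa segment at the bottom reaches 22.8% to 32.3% in the 5 NR cells and at most 18.7% in the 17 others.

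Within class IIa the leading transcript also differed by cell. *Hdac7* had the most reads per kilobase in 4 of 5 NR, 2 of 5 M-type, 4 of 6 S-type and 2 of 6 T-type cells. *Hdac5* led in 4 of 6 T-type, 2 of 5 M-type and 1 of 6 S-type cells but in no NR cell, and *Hdac9* in 1 cell each of NR, M-type and S-type. Class I transcripts made up 68.3% of the family in NR, 79.9% in M-type, 81.7% in T-type and 77.5% in S-type, and single cells ran from 23.4% in T-type cell 3 to 99.8% in T-type cell 2.

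*Hdac1* (chromosome 4, 129516104 to 129542713, minus strand) encodes a catalytic subunit of the Sin3, NuRD and CoREST complexes. NR cells had normalised counts of 104, 285, 221, 169 and 51.0, M-type cells had 1415, 167, 68.9, 322 and 353, S-type cells ran from 85.0 to 1662 with a median of 231, and T-type cells from 43.6 to 2296 with a median of 638. The highest NR cell was exceeded by 2 of 6 S-type, 4 of 6 T-type and 3 of 5 M-type cells, and the ranges overlapped. The levels, means over cells ± SD, were 166.2 ± 92.5 in NR (n = 5), 465 ± 544 in M-type (n = 5), 757 ± 794 in T-type (n = 6) and 530 ± 620 in S-type (n = 6). In the order of levels NR, M-type, S-type and T-type, no 2 neighbours differed by more than the SD of the higher. The log2 ratio to NR was 2.19 (2.09 to 2.28) for T-type, 1.48 (1.39 to 1.58) for M-type and 1.67 (1.58 to 1.77) for S-type, the bracketed values being 95% counting intervals. All 3 ratios were past 2-fold, but without the highest cell of each type they were 1.43, 0.45 and 0.87 in that order, and that cell carried 50.5%, 60.9% and 52.2% of the level. S-type cell 1, the highest of its type, was among the cells rich in transcripts of dividing cells, and without S-type cells 1 and 2 and T-type cell 5 the S-type ratio was 0.94. The 3 ratios share the same NR cells.

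*Hdac2* (chromosome 10, 36974544 to 37001889, plus strand), the partner of *Hdac1* in those complexes, showed no such order. NR cells had 1446, 183.2, 1141, 1897 and 2867 normalised counts, M-type cells had 550, 2033, 1323, 1741 and 1069, S-type cells ran from 69.0 to 2107 with a median of 812, and T-type cells from 65.5 to 9962 with a median of 1377. All 4 types overlapped, and the highest and the lowest cell were both T-type. The level was 1507 ± 986 in NR, 1343 ± 579 in M-type, 2622 ± 3696 in T-type and 856 ± 734 in S-type. T-type was past 2-fold above S-type, at a log2 ratio of 1.61 (1.57 to 1.66), but T-type cell 2 held 63.3% of the T-type level and the ratio was 0.43 without it. That cell had 9962 normalised counts and 219 CPM, and by mean CPM the ratio of T-type to S-type was 0.64. The ratio to NR was 0.80 in T-type and -0.17 in M-type, which changed sign by mean CPM, to -0.09 and 0.05, and -0.82 in S-type.

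Within single cells either transcript could lead. *Hdac2* had more reads than *Hdac1* in 15 of 22 cells, in 4 of 6 S-type, 3 of 6 T-type, 4 of 5 M-type and 4 of 5 NR cells, with or without division by exon length. The log2 ratio of *Hdac2* to *Hdac1* reads ran from -3.61 in S-type cell 6 to 5.84 in T-type cell 6, so that each transcript outnumbered the other by over 10-fold in some cell. Over the 22 cells Spearman's rho between them was -0.43, the lowest of the 45 pairs of deacetylases, whose median was 0.0057 and whose highest was 0.35, for *Hdac3* and *Hdac4*. Cells share the amplification and differ in depth, and these values are given as a description.

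**Figure D3:**
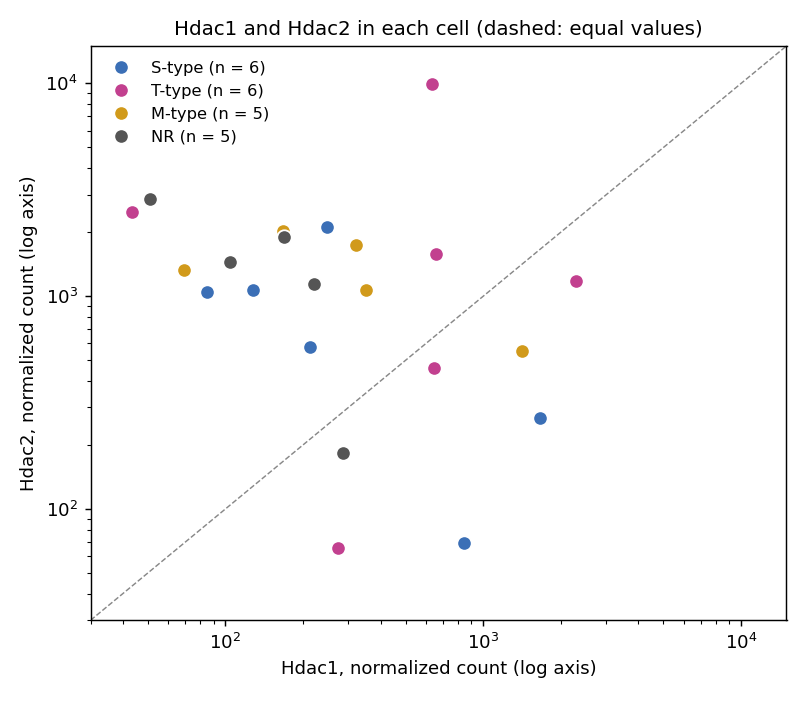
Normalised counts of *Hdac1* and *Hdac2* (both log axes), with 1 point for each of the 22 cells coloured by response type and a dashed line where both are equal. The 15 cells above the line, of every type, had more *Hdac2*, and the 7 below it more *Hdac1*.

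*Hdac3* (chromosome 18, 37935844 to 37955016, minus strand) is the catalytic subunit of the NCoR and SMRT corepressors. NR cells had 4.86, 181.5, 2.16, 202 and 146 normalised counts, M-type cells 0, 639, 140, 96.0 and 213, S-type cells 14.1 to 297 and T-type cells 5.83 to 482. All types overlapped, at levels of 107 ± 96.7 in NR, 218 ± 248 in M-type, 210 ± 179 in T-type and 135 ± 128 in S-type. M-type was at a log2 ratio of 1.02 (0.90 to 1.14) to NR, just past 2-fold, and at 0.07 without M-type cell 2. T-type lay just inside, at 0.97 (0.84 to 1.11), and S-type was at 0.34 (0.21 to 0.47).

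*Hdac8* (X chromosome, 102284639 to 102505359, minus strand) was the deacetylase with the fewest reads, 914 over all cells. S-type cells ran from 0 to 206 normalised counts with a median of 24.8, T-type cells from 0 to 32.0 with a median of 0.912, M-type cells had 0, 0, 30.9, 78.9 and 1.30, and NR cells had 4.86, 67.5, 0, 0 and 0. Reads were present in 4 of 6 S-type, 3 of 6 T-type, 3 of 5 M-type and 2 of 5 NR cells. T-type was lower than S-type at a log2 ratio of -3.13 (-3.56 to -2.72), past 2-fold in all 20 calculations that left out 1 cell or changed 1 setting. S-type was higher than NR at 2.17 (1.89 to 2.46), past 2-fold in all 19 of the same kind, with 93.3% of the NR level in NR cell 2 alone. Both tallies include settings that changed only the gene filter and so could not move the ratio.

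*Hdac7* (chromosome 15, 97792664 to 97844502, minus strand), a class IIa enzyme best known from endothelium and thymocytes, had, within the family, the most responding cells outside the NR range, 14 of 17. How many of all genes have as many was not counted. NR cells had 516, 338, 305, 686 and 1461 normalised counts, and M-type cells had 269, 723, 172.997, 85.6 and 1.30. S-type cells ran from 96.8 to 476 with a median of 170, and T-type cells from 2.59 to 460 with a median of 71.6. Of the responding cells 5 of 6 S-type, 5 of 6 T-type and 4 of 5 M-type cells lay below the lowest NR cell, and 1 cell of each type overlapped the NR range. The level was 661 ± 472 in NR against 250 ± 282 in M-type, 142 ± 173.8 in T-type and 218 ± 134 in S-type. The log2 ratio to NR was -2.21 (-2.35 to -2.08) for T-type, -1.40 (-1.48 to -1.32) for M-type and -1.60 (-1.69 to -1.52) for S-type. With any 1 cell left out they were at most -1.70, -0.88 and -1.08 in that order. Without the 3 NR cells that had over 20 CPM of microglial reads they were -2.63, -1.82 and -2.02.

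*Hdac9* (chromosome 12, 34047580 to 34917095, minus strand), another class IIa enzyme that represses MEF2 targets, had the largest ratio of the family in 3 of the 4 comparisons, S-type versus NR being the exception. NR cells had 213, 191, 913, 649 and 21.3 normalised counts, and M-type cells had 15.01, 63.7, 0.469, 295 and 0.864. T-type cells ran from 0 to 49.3 with a median of 3.15, and S-type cells from 0 to 384 with a median of 37.4. All T-type cells together gave 47 reads, against 3064 from NR, and 5 of 6 T-type cells lay below the lowest NR cell, NR cell 5. The level was 397 ± 370 in NR, 75.1 ± 126 in M-type, 11.2 ± 19.1 in T-type and 138 ± 184 in S-type. The log2 ratio of T-type to NR was -5.15 (-5.60 to -4.74), and with any 1 cell left out it ran from -6.80 to -4.59. The ratio was -2.40 (-2.53 to -2.28) in M-type and -1.53 (-1.63 to -1.43) in S-type, and the latter was -0.96 without NR cell 3. T-type was also below S-type, at -3.62 (-4.08 to -3.20), past 2-fold in all 20 calculations that left out 1 cell or changed 1 setting. Among them were the filter settings, which could not move the ratio. Without the 3 NR cells with microglial reads the ratios to NR were -5.38 for T-type, -2.64 for M-type and -1.76 for S-type.

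*Hdac4* (chromosome 1, 91928779 to 92195699, minus strand) and *Hdac5* (chromosome 11, 102194432 to 102230166, minus strand), the remaining class IIa enzymes, had no ratio past 2-fold in any of the 4 comparisons. For *Hdac4*, NR cells had 0, 81.1, 15.1, 508 and 3.71 normalised counts, and M-type cells had 35.7, 2.80, 122, 17.6 and 131. NR cell 4 held 83.6% of the NR level of 122 ± 218, and the other levels were 61.8 ± 60.2 in M-type, 111 ± 130 in T-type and 81.4 ± 46.9 in S-type. The ratio to NR was -0.13 for T-type, -0.98 for M-type and -0.58 for S-type, and without NR cell 4 it was 2.15, 1.31 and 1.70. A lincRNA on the opposite strand overlaps 22.4% of the *Hdac4* exon bases, and whether the counting used the strand is not given in the sources used here. *Hdac5* levels were 264 ± 172.7 in NR, 253 ± 275 in M-type, 222 ± 157 in T-type and 139 ± 80.0 in S-type. S-type was the lowest, at -0.93 (-1.03 to -0.82) against NR, and all 6 S-type cells lay below the NR median of 290.2, inside the NR range of 20.9 to 454 but for S-type cell 1 at 5.33.

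*Hdac6* (X chromosome, 7930120 to 7947889, minus strand), the class IIb tubulin deacetylase, was past 2-fold above NR in all 3 responding types, with unequal backing from the cells. NR cells had 0, 256, 64.7, 5.38 and 50.1 normalised counts, M-type cells had 132, 1062, 130, 15.6 and 241, S-type cells ran from 39.2 to 645 with a median of 220, and T-type cells from 0 to 1598 with a median of 4.99. In S-type 5 of 6 cells and in M-type 4 of 5 cells lay above the NR median, but in T-type 2 of 6. The log2 ratio to NR was 2.07 (1.94 to 2.20) in M-type and 1.84 (1.70 to 1.97) in S-type, and with any 1 cell left out it was at least 0.78 and 1.36. Without the cells rich in transcripts of dividing cells the S-type ratio was 0.84, inside 2-fold. In T-type it was 2.09 (1.91 to 2.27), with 83.1% of the level in T-type cell 3, the shallowest library, which had 1598 normalised counts and 99.7 CPM. Without that cell the T-type ratio was -0.21, and by pooled CPM it was -0.08.

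*Hdac11* (chromosome 6, 91156665 to 91174692, plus strand), a small deacetylase known to remove fatty acyl groups, had reads in 11 cells. NR cells had 63.7, 108, 15.1, 0 and 0 normalised counts, M-type cells had 0, 0, 9.85, 0 and 32.4, and S-type cells ran from 0 to 46.6. T-type cell 6 held 98.2% of the T-type level, at 309 normalised counts, and the only other T-type cell with a read had 5.63. M-type was below NR at a log2 ratio of -2.14 (-2.49 to -1.81), from 96 reads against 316, and at 0.16 without the 3 NR cells with microglial reads. T-type was above S-type at 1.27 (1.01 to 1.55), a ratio that became -4.27 without T-type cell 6. Transcripts on the opposite strand overlap 15.4% and 2.49% of its exon bases.

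Counted over the family, between 4 and 6 of the 10 deacetylases went past 2-fold in a comparison. In T-type versus S-type 2 of 10 were higher (*Hdac2* and *Hdac11*), where 25.7% of all 12517 genes compared were, and 2 were lower (*Hdac8* and *Hdac9*), where 32.5% were. In T-type versus NR 2 were higher (*Hdac1* and *Hdac6*) and 2 lower (*Hdac7* and *Hdac9*), beside 28.4% and 32.8% of all genes. In S-type versus NR 3 were higher, *Hdac8* joining *Hdac1* and *Hdac6*, and 2 were lower, beside 25.1% and 22.5%. In M-type versus NR 3 were higher, with *Hdac3*, and 3 lower, with *Hdac11*, beside 19.8% and 28.1%. No deacetylase had cells of 2 types that did not overlap in any comparison, where 0.783%, 1.01%, 0.412% and 0.602% of all genes had, in the same order. The median log2 ratio of the 10 was 0.48, 0.18, -0.68 and -0.11, beside -0.09, -0.07, 0.03 and -0.20 for all genes. The sign of the median changed in every comparison in some setting. By the median over cells it was -0.64 in T-type versus S-type and -0.24 in T-type versus NR. The latter was also -0.20 by mean CPM and -0.03 with thinned cells. In M-type versus NR it was 0.03 by pooled CPM, and -0.51 to 0.11 with each cell left out. In S-type versus NR it changed sign only without NR cells 1, 2 and 4. Single NR cells moved the counts: of the 10, 4 went past 2-fold in T-type versus NR, but 7 did without NR cell 2, 4 or 5, and 5 did in S-type versus NR, but 8 without NR cell 4. Without NR cells 1, 2 and 4, which had over 20 CPM of microglial reads, 8, 9 and 7 of 10 went past 2-fold in T-type, S-type and M-type. The part of the microglial reads in the counts was not tested. Without those 3 cells the medians of the deacetylases were 1.99, 1.20 and 0.86 in that order, beside 0.49, 0.54 and 0.26 for all genes. The share of all genes past 2-fold was not counted with NR cells left out. By pooled CPM the medians of all genes in the 2 T-type comparisons moved to -0.56 and -0.54, and those of the deacetylases to 0.03 and -0.27. In all 3 comparisons with NR, which share the same 5 NR cells, *Hdac1* and *Hdac6* were past 2-fold higher and *Hdac7* and *Hdac9* past 2-fold lower. *Hdac3* was also higher in all 3, past 2-fold in M-type, and *Hdac4* and *Hdac5* were lower in all 3 but never past 2-fold, *Hdac5* in M-type turning to 0.08 with TMM factors and 0.02 by pooled CPM. The direction of *Hdac4* was not stable either: by the median over cells it was higher in all 3, at 2.27 in T-type, 2.31 in S-type and 1.24 in M-type. In that setting *Hdac3* was at -0.84 in S-type and -0.05 in M-type.

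**Figure D4:**
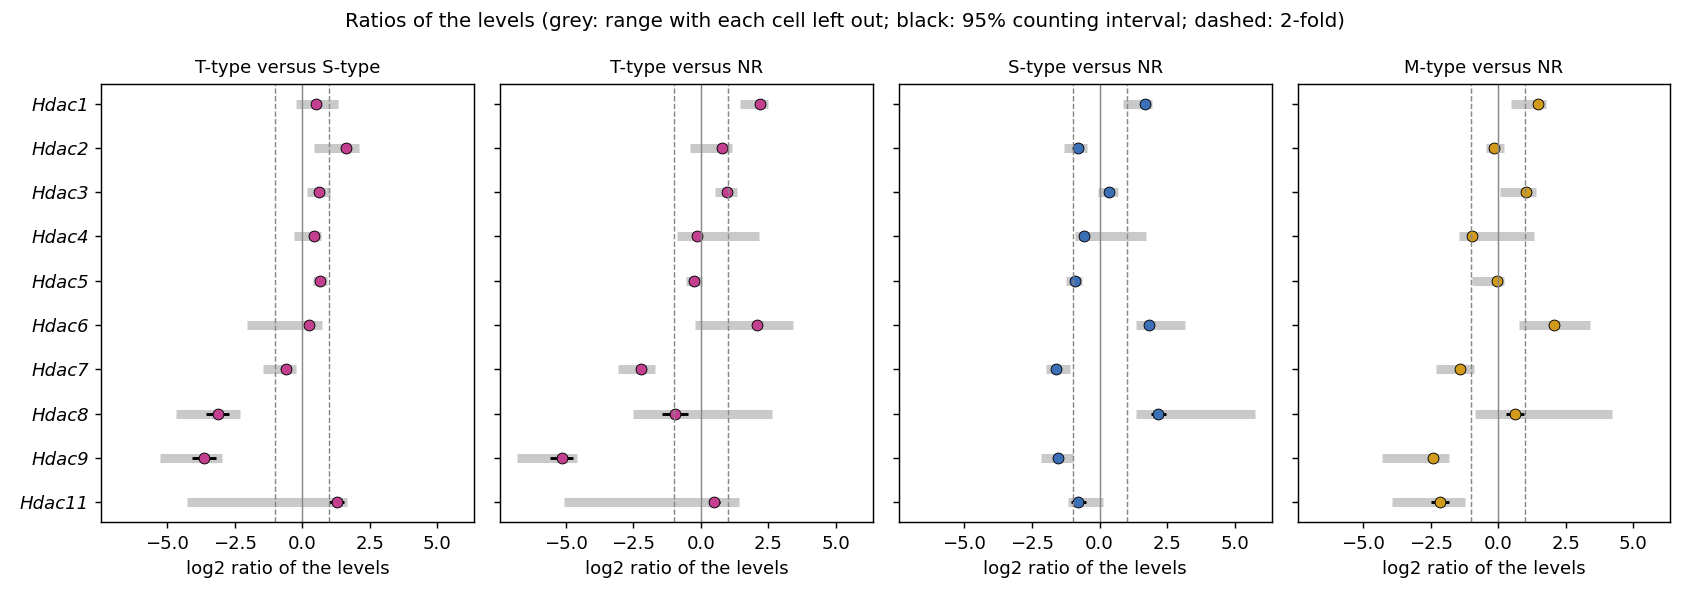
Log2 ratio of the levels of each deacetylase in the 4 comparisons (points), with the 95% counting interval (black), the range when each cell is left out in turn (grey) and the 2-fold limits (dashed). The grey range of *Hdac9* in T-type versus NR runs from -6.80 to -4.59, whereas that of *Hdac11* in T-type versus S-type runs from -4.27 to 1.65.

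The subunits that hold class I deacetylases in complexes were measured in the same cells, on lists chosen by name, of which the 3 genes with the most reads are given. Of the Sin3 list, 16 genes were compared in T-type versus NR, and 8 were past 2-fold higher and 3 lower, where 28.4% and 32.8% of all genes were, with a median log2 ratio of 0.81. *Sin3b*, a scaffold of the complex, was at 1.55 (1.53 to 1.58), and at 0.73 without T-type cell 1. *Sap18* and *Morf4l1*, which encode smaller subunits of Sin3 complexes, were at 0.49 and 0.52. In M-type 3 of 15 were higher and 1 lower (19.8% and 28.1% of all genes), and in S-type 4 of 16 higher and 1 lower (25.1% and 22.5%), at medians of -0.46 and 0.45. In T-type versus S-type 6 were higher and 3 lower (25.7% and 32.5%), at a median of 0.27.

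Of the NuRD list 13 genes were compared. Against NR, 5 were higher and 4 lower in T-type (28.4% and 32.8% of all genes), 1 and 5 in M-type (19.8% and 28.1%), and 2 and 2 in S-type (25.1% and 22.5%), and 5 and 2 in T-type versus S-type (25.7% and 32.5%). *Mta1*, a NuRD subunit that binds and activates Hdac1, had a level of 12849 in T-type and 652 in NR, a log2 ratio of 4.30 (4.26 to 4.35), which was -0.05 without T-type cell 2. The histone chaperones *Rbbp4* and *Rbbp7* were at 1.86 and 1.35, and at 0.42 and 0.61 without T-type cell 1.

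In the CoREST list 1 cell decided the largest ratio. *Rcor3*, a CoREST scaffold, was at 4.93 (4.84 to 5.02) in T-type versus NR and at -4.80 without T-type cell 2. *Zmym2*, which encodes a zinc finger protein of these complexes, was higher in M-type than in NR at 2.13 (2.09 to 2.18), and at 1.82 or above with any 1 cell left out, while the lysine demethylase *Kdm1a* was at -1.74 in T-type versus NR and at 0.26 without NR cell 5. Of 10 genes compared 2 were higher and 2 lower in T-type (28.4% and 32.8% of all genes), 4 and 1 in S-type (25.1% and 22.5%), and 2 and 4 in M-type (19.8% and 28.1%), each against NR, and 2 and 1 in T-type versus S-type (25.7% and 32.5%).

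Of the 5 NCoR and SMRT genes, which surround Hdac3, 3 were higher and 1 lower in T-type than in NR, 2 and 0 in S-type, and 0 and 1 in M-type, beside 28.4% and 32.8%, 25.1% and 22.5%, and 19.8% and 28.1% of all genes. *Ncor1*, the corepressor itself, was at 2.07 (2.05 to 2.10) in T-type and at 0.86 without T-type cell 1. *Tbl1x* was at 3.03 in T-type and -0.08 without T-type cell 2, and *Tbl1xr1*, the gene counted as lower, at -1.10 and -0.49 without NR cell 5. In T-type versus S-type 2 were higher and 1 lower, beside 25.7% and 32.5%. Among the 6 genes of the MiDAC and MIER complexes, 3 were higher and 2 lower in T-type than in NR, 2 and 0 in S-type, 1 and 1 in M-type, and 1 and 1 in T-type versus S-type, beside the same shares of all genes. *Mier1* was at -2.18 (-2.24 to -2.12) in M-type versus NR and -0.45 without NR cell 5, and *Mier3* and *Dnttip1* were at -0.25 and -0.21.

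The class IIa partners comprised MEF2 transcription factors that these enzymes bind, the Ywha proteins and Sfn that hold them in the cytoplasm, and *Ankra2* and *Rfxank*. Of 12 compared, 5 were higher and 2 lower in T-type than in NR and again in T-type versus S-type, and 2 and 2 in S-type versus NR. In M-type 1 of 11 was higher and 2 lower. The shares of all genes were 28.4% and 32.8% in T-type versus NR, 25.7% and 32.5% in T-type versus S-type, 25.1% and 22.5% in S-type versus NR and 19.8% and 28.1% in M-type versus NR. *Ywhab*, *Ywhag* and *Ywhaq* lay within 2-fold in all 4 comparisons, between -0.66 and 0.82. Against NR, *Mef2a* was at 7.88 in T-type, 3.31 in S-type and 5.66 in M-type. *Mef2c* was at -0.9997, -1.98 and -1.71 in that order. In T-type versus S-type *Mef2a* was at 4.57 and *Mef2c* at 0.98. *Mef2d* had 25 reads over all cells and none in NR, and *Mef2b*, with reads in 3 cells, was not compared. The MEF2 ratios with single cells left out are not given here.

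Of 12 cohesin genes, 3 were higher and 3 lower in T-type than in NR, 4 and 3 in S-type, 1 and 2 in M-type, and 4 and 4 in T-type versus S-type. All genes gave 28.4% and 32.8%, 25.1% and 22.5%, 19.8% and 28.1%, and 25.7% and 32.5% in that order. *Smc3*, the substrate of Hdac8, was at 1.64 in T-type versus NR and 1.20 in T-type versus S-type, and both were inside 2-fold without T-type cell 1, at 0.52 and 0.07. *Rad21* lay between -0.76 and 0.45, and *Nipbl*, the cohesin loader, was at -0.67 in M-type, -1.47 in S-type and -1.40 in T-type against NR.

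The sirtuins are deacetylases of class III that need NAD and share no ancestry with the classical enzymes. In M-type versus NR none of the 7 was higher and 4 were lower, where 19.8% and 28.1% of all genes were. The median of -1.80 (all genes -0.20) was that of *Sirt6*, with 13 reads over all cells and none in M-type, so it is a bound set by the floor of 3 reads, and leaving out NR cell 4 moved it to -0.34. *Sirt3*, the mitochondrial sirtuin, was at -2.65 (-2.82 to -2.49), and at -0.44 without NR cell 2, while *Sirt1* and *Sirt2* were at -0.07 and -0.49. In T-type 2 were higher and 2 lower (28.4% and 32.8% of all genes), in S-type 0 and 3 (25.1% and 22.5%), each against NR, and in T-type versus S-type 3 and 1 (25.7% and 32.5%). Without the 3 NR cells with microglial reads the M-type median was 0.50.

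**Figure D5:**
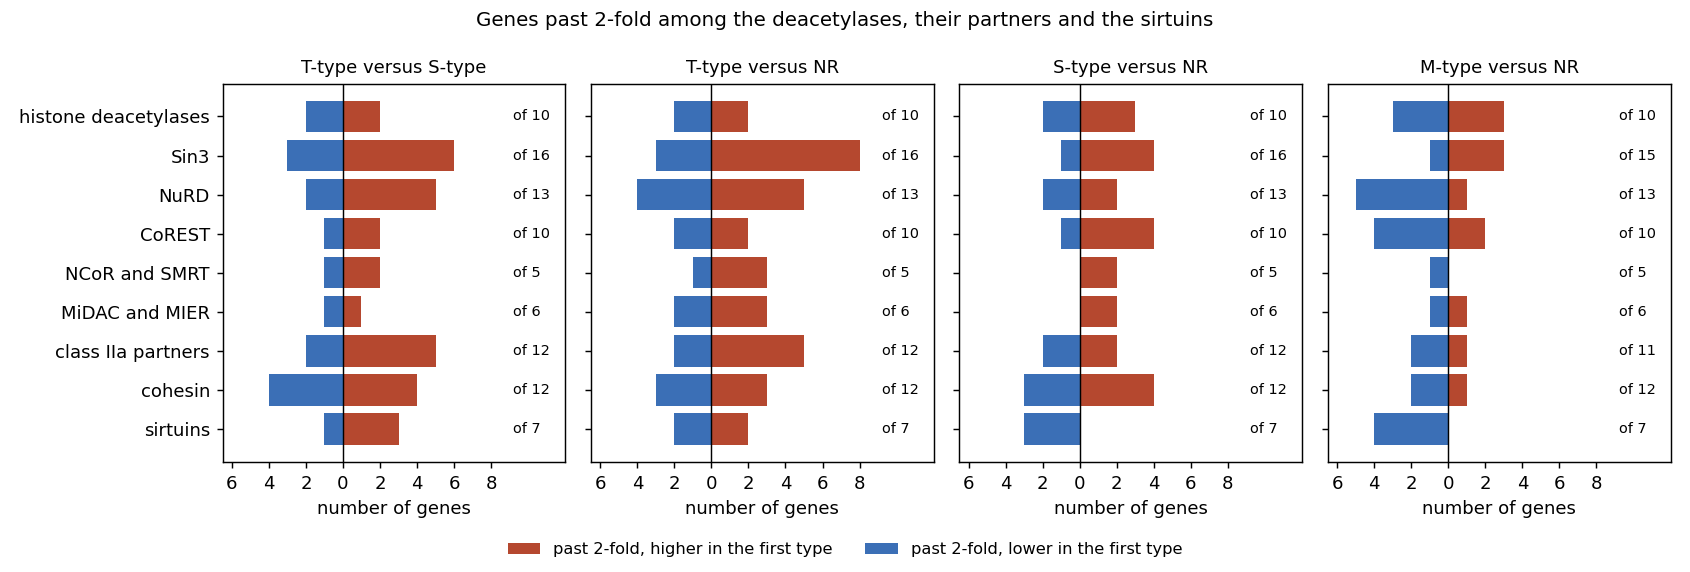
Number of genes past 2-fold higher (right, red) and lower (left, blue) in the first-named type, for the 10 deacetylases and the 8 lists of partners and sirtuins in each comparison, with the number compared at the right. The Sin3 bar in T-type versus NR reaches 8 of 16, and the sirtuins in M-type versus NR reach 0 higher and 4 lower of 7.

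Over 9364 genes, each read in 15 or more cells and with a mean level of 10 or more, the gene whose order over the 22 cells was most like that of each deacetylase was found by Spearman's rho. It was *Caprin1* for *Hdac1* (0.70), *Rbm38* for *Hdac2* (0.78), *Nme3* for *Hdac3* (0.73), *Nnt* for *Hdac5* (0.82) and *Peli1* for *Hdac6* (0.82), each also the most alike with TMM factors. For *Hdac4*, *Hdac7* and *Hdac9* it was *Ccdc101* (0.79), *Lrrc8d* (0.72) and *Cpeb1* (0.74), and another gene took the place with TMM factors. *Hdac8* and *Hdac11* had reads in too few cells. The highest of 9364 values over 22 cells is large for any gene, and no other deacetylase was the most alike of a member.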

How the data were processed

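The data were one table of raw counts for 22 single cells, and every column was matched to its cell by name. As deposited by the authors, a count was the number of uniquely mapped reads on the exons of a gene, from STAR alignment to GRCm38 and counting with VERSE, a modified HTSeq, whose versions are not given in the sources used here. The RNA of each cell was amplified linearly in 2 rounds without molecular identifiers, so a count is of amplified reads.

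Size factors were medians of ratios over the 3670 genes read in every cell, a normalised count was the count over that factor, and a level was the mean over the cells of a type. A gene was compared where at least 5 cells had a read and 1 of the types more than 3 reads, and a level of 0 was set to a floor of 3 reads over the type. A log2 ratio of 1 in either direction was called past 2-fold. Intervals were exact binomial at 95% for the split of the summed reads between 2 types, shifted to the log2 ratio of the levels. They do not carry the unequal size factors of the cells. Where a cell with a small size factor holds much of a level, they can be too narrow even for counting error. With 1 sample per type no test and no p-value was computed. Exon lengths came from GENCODE annotation of GRCm38.

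The members and lists were chosen with earlier results of these data known. Named were all members, the 3 genes of each list with the most reads, the MEF2 genes, and the gene most alike to each member read in at least 15 cells, with a mean level of at least 10. Alternatives were TMM factors, pooled and mean CPM, the median over cells, thinning to 2937786 reads, other filters and leaving out each cell. Other filters change which genes are compared and cannot move the ratio of a single gene. The sets of cells left out together, the class sum and its settings were chosen after the values were seen. On simulated counts for 11845 genes, of which 200 were changed, the slope of estimated on true log2 ratios was 0.985 to 1.05. The simulated spread between cells was set alike for every gene, below the median coefficient of variation of 1.56 over all genes in the data. The slope therefore does not show how far 1 high cell moves a ratio here. Python 3.11.15, NumPy 2.4.6, pandas 2.3.3, SciPy 1.17.1, matplotlib 3.10.9, R 4.3.3 and edgeR 4.0.16 (for TMM factors only) were used.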

Additional observations from a re-analysis of the deposited data

Results flagged for a closer look

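In 3 of the 48 groups of cells examined, 1 cell lay far from all others of its type, on the scale of log2 of the normalised count plus 1. About 1 in 20 groups would pass the limit used if values were normally distributed, which counts with zeros are not. The flags are given as a description. For *Hdac5*, S-type cell 1 was at 2.66 and its gap to the nearest cell was 0.735 of the range of the type. For *Hdac5*, T-type cell 2 was at 0.0, without a read, with a gap of 0.777 of the range. For *Hdac11*, T-type cell 6 was at 8.28, with a gap of 0.670. The limit for 6 cells was 0.625.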

How the results depend on the processing

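No paired analysis was possible because the labels give no replicate numbers that tie cells of different types. The direction of *Hdac7*, *Hdac9* and *Hdac1* against NR held in every alternative named above and without each set of cells. By the median over cells 7 deacetylases went past 2-fold in T-type versus S-type and 7 in T-type versus NR, their median ratio was -0.64 and -0.24 there, *Hdac11* was at -5.31 in T-type versus S-type, *Hdac6* at -3.33 in T-type versus NR, *Hdac3* at -0.054 in M-type versus NR, and the T-type versus NR medians of the endothelial and mural lists were 0.13 and 0.65. The median over cells also put *Hdac4* above NR, at 2.27 in T-type, 2.31 in S-type and 1.24 in M-type. By pooled CPM *Hdac6* was at -0.084 in T-type versus NR, and without a filter the endothelial median was 0.97. Leaving out each cell gave counts past 2-fold of 4 to 7 in T-type versus NR and 4 to 8 in S-type versus NR. It gave -4.27 to 1.65 for *Hdac11* in T-type versus S-type and -0.21 to 3.42 for *Hdac6* in T-type versus NR. The list medians then ran from -0.064 to 2.30 (NCoR and SMRT), -5.71 to 1.97 (endothelium) and -0.57 to 5.89 (dividing cells) in T-type versus NR, -0.50 to 3.80 (mural) in S-type versus NR and -2.26 to 4.24 (dividing cells) in M-type versus NR. Without NR cells 1, 2 and 4, 8 and 9 deacetylases went past 2-fold in T-type and S-type. Their medians were then 1.99 in T-type, 1.20 in S-type and 0.86 in M-type, beside 0.49, 0.54 and 0.26 for all genes. The microglial median was 1.25 in T-type, the sirtuin median 0.50 and *Hdac11* 0.16 in M-type. The share of all genes past 2-fold was counted only in the main setting. Without T-type cells 2 and 3 the NCoR and SMRT median was -0.072, and without the cells rich in dividing transcripts the median of the list of dividing cells was -0.57, both in T-type versus NR. For the class IIa share, reads not divided by length gave 35.6% in the lowest NR cell and 37.0% in the highest responding cell, and the lowest NR cell was at 4.73% without *Hdac7*. The cause of these changes was not tested. *Hdac8* and *Hdac11* had no read in 10 and 11 cells, and a cell without a read may still hold transcripts.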

Other observations

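At their median the deacetylases varied less between cells than all genes did. Their coefficients of variation over the 22 cells had a median of 1.28 and ran from 0.804 for *Hdac5* to 2.22 for *Hdac11*, where the median of 12719 genes was 1.56. A single cell held most of the level of its type for 4 of 10 deacetylases in NR, 8 in both M-type and T-type, and 2 in S-type. Among all genes the share was 57.5% in NR, 50.3% in M-type, 71.6% in T-type and 44.9% in S-type.

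*Hdac10*, another class IIb enzyme and a polyamine deacetylase, was in the table but outside the 10 genes described. It had no read in any T-type cell, and S-type cell 2 held 94.5% of its S-type level.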
